A study of Rattus norvegicus with 30 samples.

Results

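Gene expression in the lung 24 hours after taurocholate was infused into the biliopancreatic duct (SAP-24h) was compared with that 24 hours after saline was infused into the same duct (Con-24h). The members are the 6 libraries that carry these 2 group labels, 3 rats each, out of 30 in the series, and every gene tested was followed. Both groups were male Sprague Dawley rats aged 8 weeks and weighing 180 to 220 g, fasted for 12 hours before surgery under anaesthesia. SAP-24h received 5.0% sodium taurocholate at 0.1 mL per 100 g body weight by retrograde infusion, a standard way to induce severe acute pancreatitis, and Con-24h received the same volume of sterile saline. Rats of both groups were also given intravenous saline and 0.5% carboxymethylcellulose into the stomach at 2 and 12 hours, as vehicles for drugs used elsewhere in the series. Con-24h therefore shared the operation, the duct infusion and the vehicles, and the comparison addresses what the bile salt added to them. Sham-24h rats, whose pancreas was only moved, are given beside the main groups where this places a level. The study states that saline in the duct itself caused mild pancreatitis, and it therefore took sham rats as its control. Con-24h rats, called controls here, are by that account not free of pancreatitis. Each library came from 1 rat, so the spread between replicates is the spread between animals, and a whole-lung library cannot tell more cells of a type from more RNA per cell.

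In severe acute pancreatitis, enzymes and inflammatory mediators released from the injured pancreas reach the blood, and the lung is the organ most often injured at a distance. Neutrophils, which carry granules of proteases and antimicrobial proteins, are drawn by CXC chemokines through activated endothelium into the lung. The gas-exchange surface that they reach consists of flat alveolar type 1 cells, surfactant-producing type 2 cells and a capillary network, held by fibroblasts and elastic fibres.

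The libraries held 23100017 to 31370567 reads on genes, and 17835 to 18145 genes had at least 1 read. All 6 libraries held the defining transcripts of lung, with Sftpc, a surfactant protein of type 2 cells, at 19727, 30191 and 22155 FPKM in SAP-24h and 26666, 28785 and 28214 FPKM in Con-24h, values here and below being those of replicates 1 to 3 in order. SAP-24h replicate 1 stood farthest from the others, with a score of 74.9 on the first principal component (42.1% of the variance) against 21.4 and 34.5 in its group and −57.5 to −25.3 in Con-24h. It had the highest heat shock, unfolded protein and metallothionein levels, whereas Con-24h replicate 1 had the highest interferon-stimulated and T cell levels of the 6 libraries. Each library was left out in turn, and losses of calls are given beside the main genes and lists. The study's sequencing summary lists a lower share of uniquely mapped reads, and a higher share of reads kept after trimming, in every SAP-24h than in every Con-24h library, and these differences cannot be told apart from the treatment.

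A total of 1101 genes (6.91% of the 15934 tested) were DEGs, defined as genes with an adjusted p under 0.05 in edgeR's quasi-likelihood test and a change of at least 2-fold. SAP-24h had 582 up-regulated genes (3.65%) and 519 down-regulated genes (3.26%). Large changes were more often increases, since 175 up-regulated and 120 down-regulated genes changed at least 4-fold, and 43 and 15 at least 16-fold. Protein-coding genes made up 1053 of the DEGs. FPKM (fragments mapped to a gene, scaled by transcript length and library size) of the 3 rats of one group did not overlap that of the other for 474 up-regulated and 476 down-regulated genes. Among all genes tested, 9.87% were higher and 22.3% lower without overlap, 32.1% in all. The median log2 fold change was −0.01 in the edgeR fit, whereas the median log2 ratio of mean FPKM was −0.13, so FPKM values lie slightly lower in SAP-24h than the fold changes. The mean of Sham-24h lay nearer to Con-24h than to SAP-24h for 379 of the 582 up-regulated and 469 of the 519 down-regulated genes. Every Sham-24h library also lay on the Con-24h side in the shares of mapped and kept reads. Sham-24h therefore does not separate those differences from the treatment.

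The number of DEGs varied with the rats included. Without Con-24h replicate 2 there were 355 up-regulated and 260 down-regulated genes, and without SAP-24h replicate 1 there were 390 and 303. The highest counts were 696 up-regulated genes without SAP-24h replicate 2 and 702 down-regulated genes without Con-24h replicate 3. A core of 371 genes, 207 up-regulated and 164 down-regulated, was called in the full data and in each of the 6 fits with 1 library left out. When the 6 libraries were fitted on their own, with 4 instead of 20 residual degrees of freedom, 150 genes were up-regulated and 80 down-regulated.

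**Figure D1:**
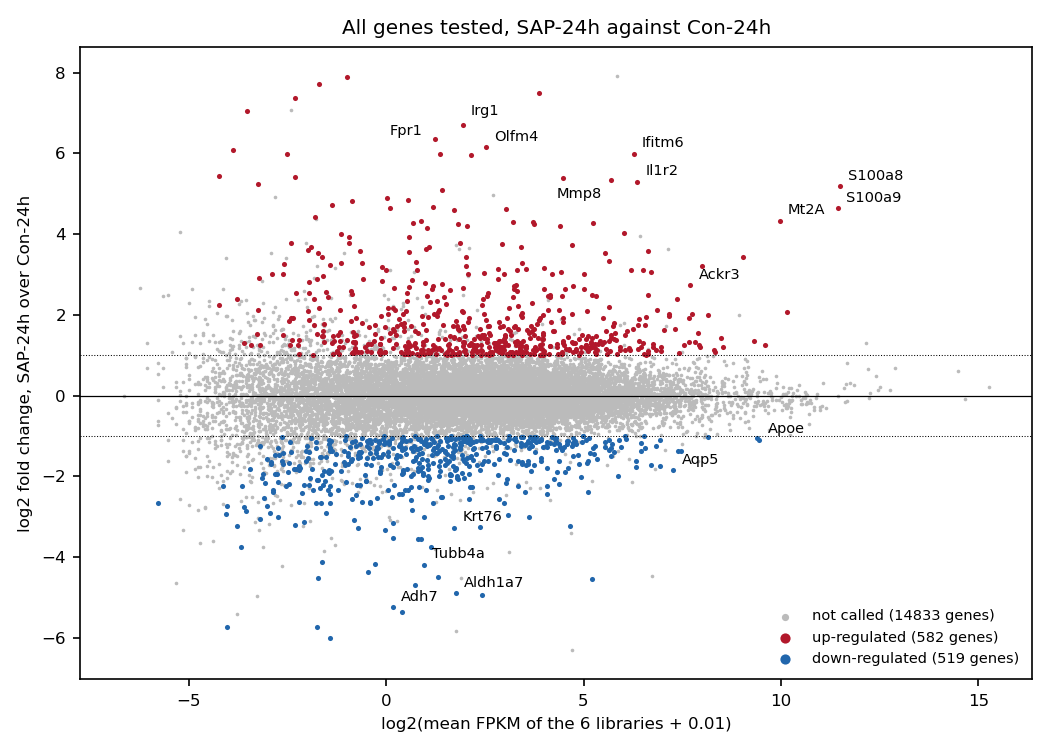
Log2 fold change (SAP-24h over Con-24h, edgeR) against log2 of the mean FPKM of the 6 libraries plus 0.01, 1 point per gene tested. Up-regulated genes (582) include abundant transcripts such as S100a8, S100a9 and Mt2A, toward the right. The down-regulated genes (519) of largest fold change, such as Adh7 and Aldh1a7, lie at low levels. Dotted lines mark 2-fold.

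Neutrophil genes were the group with the highest median change. Of the 22 members tested, 19 were up-regulated and none down-regulated, with a median log2 fold change of 2.84 against −0.01 over all genes. Their summed level was 12983, 4926 and 16856 in SAP-24h and 1071, 214 and 249 in Con-24h FPKM, so that the groups did not overlap. In Sham-24h the sums were 1609, 278 and 9540 FPKM, and replicate 3 of Sham-24h lay within the SAP-24h range. Leaving out any 1 library left 15 to 18 members up-regulated, and 3 members, Retnlg, Cd177 and Fpr2, were not called.

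The most abundant of them were S100a8 and S100a9, the subunits of calprotectin, which binds zinc and calcium and signals through TLR4. S100a8 (ENSRNOG00000011557, chromosome 2) was at 6662, 2065 and 7944 FPKM in SAP-24h and 366, 43.2 and 87.9 FPKM in Con-24h (log2 fold change 5.19 ± 1.18, adjusted p = 0.00382). S100a9 was at 5704, 2216 and 8075 FPKM in SAP-24h and 562, 46.4 and 84.7 FPKM in Con-24h (log2 fold change 4.65 ± 1.13, adjusted p = 0.00585). Both were lowest in replicate 2 of SAP-24h, which still exceeded the highest control more than 3-fold. Among the secreted granule proteins, the collagenase Mmp8 was at 54.7, 101 and 147 FPKM in SAP-24h and 4.93, 0.97 and 2.08 FPKM in Con-24h (log2 fold change 5.35 ± 1.07, adjusted p = 0.00178). The gelatinase Mmp9 was at 33.2, 49.98 and 46.4 FPKM in SAP-24h and 1.75, 0.54 and 1.11 FPKM in Con-24h (log2 fold change 5.38 ± 0.97, adjusted p = 9.84e-04). Camp, the cathelicidin precursor, was at 53.4, 39.4 and 51.7 FPKM in SAP-24h and 4.31, 3.62 and 4.1 FPKM in Con-24h (log2 fold change 3.72 ± 0.67, adjusted p = 9.78e-04). The 3 SAP-24h rats were within 3-fold of each other for each of these granule genes.

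Receptor genes of neutrophils were among the members called, although Fpr2 was not. Fpr1, the receptor for bacterial formyl peptides, was at 2.66, 5.51 and 5.75 FPKM in SAP-24h and 0.09, 0 and 0.09 FPKM in Con-24h (log2 fold change 6.36 ± 1.12, adjusted p = 7.99e-04). Cxcr2, the receptor for CXCL1 and CXCL2, was at 15.04, 24.2 and 35.4 FPKM in SAP-24h and 2.73, 0.74 and 0.61 FPKM in Con-24h (log2 fold change 4.30 ± 0.87, adjusted p = 0.00184). Il1r2, a decoy receptor that takes up interleukin-1 without signalling, was at 152, 126 and 203 FPKM in SAP-24h and 4.58, 1.74 and 7.08 FPKM in Con-24h (log2 fold change 5.30 ± 0.95, adjusted p = 9.28e-04). Fpr1, Cxcr2 and Il1r2 were separated between the groups in every rat, which the rule that named Fpr1 and Il1r2 required. Ncf1, a subunit of the phagocyte oxidase, had a smaller log2 fold change of 1.17 ± 0.27 (adjusted p = 0.00406). The primary granule protease Elane, transcribed mainly in neutrophil precursors, was low throughout, at 4.05, 2.98 and 1.97 FPKM in SAP-24h and 0.44, 0.07 and 0 FPKM in Con-24h (log2 fold change 4.28 ± 0.98, adjusted p = 0.00412).

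Outside the list, several of the genes with the largest fold change encode proteins found in myeloid cells. Ifitm6 was at 156, 67.1 and 233 FPKM in SAP-24h and 3.0, 0.76 and 4.16 FPKM in Con-24h (log2 fold change 5.99 ± 1.32, adjusted p = 0.00316). Olfm4, a glycoprotein of a subset of neutrophils, was at 14.2, 3.11 and 16.5 FPKM in SAP-24h and 0.28, 0.14 and 0.11 FPKM in Con-24h (log2 fold change 6.15 ± 1.29, adjusted p = 0.00228). Serpinb1a, an inhibitor of neutrophil serine proteases, was at 429, 225 and 722 FPKM in SAP-24h and 66.2, 43.3 and 52.8 FPKM in Con-24h (log2 fold change 3.20 ± 0.57, adjusted p = 9.01e-04). All 3 genes were above every control in every SAP-24h rat, which the rule that named them required. Tarm1, an activating receptor of myeloid cells, had a log2 fold change of 4.89 ± 1.12 (adjusted p = 0.00397). Wfdc18 had 234 reads in SAP-24h and 3 in Con-24h over the 3 libraries of each, a ratio of 69.2 once corrected for depth (95% counting interval 23.4 to 338).

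A further pair rested mainly on the third SAP-24h rat. Irg1, the mitochondrial enzyme that makes itaconate in activated macrophages, was at 0.25, 0.19 and 22.3 FPKM in SAP-24h and 0.17, 0.03 and 0.03 FPKM in Con-24h (log2 fold change 6.70 ± 1.58, adjusted p = 0.00492), and its call was lost without SAP-24h replicate 3 (log2 fold change 1.71, adjusted p = 0.346). Gpr84, a receptor for medium-chain fatty acids on activated myeloid cells, was at 2.63, 1.15 and 22.4 FPKM in SAP-24h and 0.29, 0.06 and 0.1 FPKM in Con-24h (log2 fold change 5.95 ± 1.14, adjusted p = 0.00135). The fold change of Gpr84 ran from 3.83 to 6.83 on the log2 scale over the 6 fits, with its call kept in each.

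**Figure D2:**
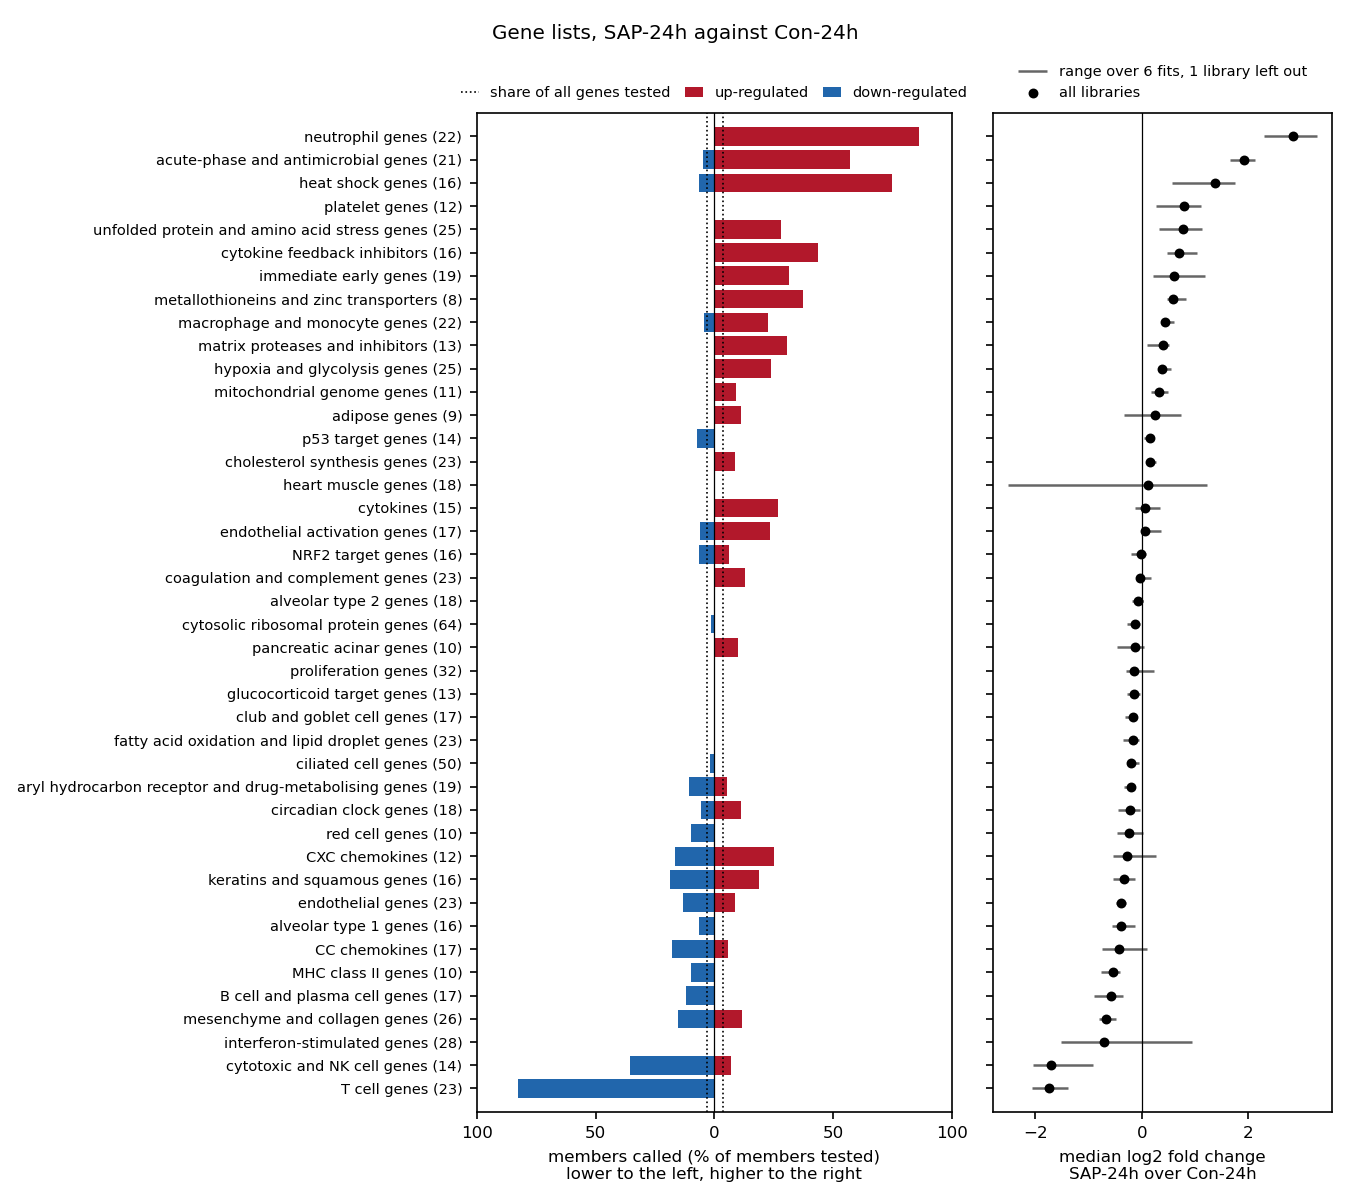
Left, share of the tested members of each of 42 gene lists that were up-regulated (right of 0) or down-regulated (left of 0), in percent, with dotted lines at the shares over all genes tested (3.65% and 3.26%). Right, median log2 fold change of each list with its range over the 6 fits that leave out 1 library. Neutrophil genes (19 of 22) and T cell genes (19 of 23) mark the ends, and heart muscle and interferon-stimulated genes have the widest ranges.

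CXC chemokines were called in both directions. The 3 up-regulated members of the 12 tested, Cxcl1, Cxcl2 and Cxcl6, are ligands of the neutrophil receptor CXCR2. The 2 down-regulated members, Cxcl9 and Cxcl11, are ligands of the T cell receptor CXCR3 and are classical interferon-γ targets. The median over the list was −0.27, and it ran from −0.54 without SAP-24h replicate 1 to 0.27 without Con-24h replicate 1. The promoters of the genes that rose are printed first, from RefSeq on the GRCr8 build, as the 250 bases before the start site, with matches to an NF-κB motif (GGG and TTTCC separated by any 2 bases) on either strand in capitals. The windows are chr14:17479322-17479571 (minus strand) for Cxcl1, chr14:17467256-17467505 (minus strand) for Cxcl2 and chr14:17596418-17596667 (minus strand) for Cxcl6, and each is written 5′ to 3′ along its gene.
Cxcl1: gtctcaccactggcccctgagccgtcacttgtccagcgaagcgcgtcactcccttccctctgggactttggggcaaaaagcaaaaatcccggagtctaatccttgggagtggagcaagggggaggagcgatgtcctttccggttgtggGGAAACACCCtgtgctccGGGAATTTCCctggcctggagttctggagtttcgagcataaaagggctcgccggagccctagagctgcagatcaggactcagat
Cxcl2: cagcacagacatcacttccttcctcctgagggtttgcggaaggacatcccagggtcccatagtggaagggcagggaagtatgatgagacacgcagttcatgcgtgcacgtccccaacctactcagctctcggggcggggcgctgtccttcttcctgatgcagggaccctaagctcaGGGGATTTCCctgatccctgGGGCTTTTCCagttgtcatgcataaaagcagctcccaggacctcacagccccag
Cxcl6: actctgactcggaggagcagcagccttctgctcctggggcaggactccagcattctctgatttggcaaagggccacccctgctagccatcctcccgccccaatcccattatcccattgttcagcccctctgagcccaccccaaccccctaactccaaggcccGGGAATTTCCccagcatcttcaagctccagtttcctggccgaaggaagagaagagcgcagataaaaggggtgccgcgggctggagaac
Of the 11 members with a RefSeq promoter, these 3 held the motif, whereas 1.3% of all 33469 promoters of the same length did. Cxcl1 had matches beginning 102 and 84 bases before the start site, Cxcl2 at 74 and 54 bases, and Cxcl6 at 88 bases. No match to this pattern was found in the windows of Cxcl9, Cxcl10 or Cxcl11, and other forms of the NF-κB site were not searched.

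Cxcl1 was at 119, 6.75 and 37.1 FPKM in SAP-24h and 9.26, 9.87 and 10.6 FPKM in Con-24h (log2 fold change 2.63 ± 0.62, adjusted p = 0.00459), and the call was lost without SAP-24h replicate 1 (log2 fold change 1.22, adjusted p = 0.112). Cxcl2 was at 8.19, 1.13 and 10.8 FPKM in SAP-24h and 0.61, 0.38 and 0.61 FPKM in Con-24h (log2 fold change 3.79 ± 0.66, adjusted p = 7.73e-04). Cxcl6 was at 0.63, 0.22 and 1.55 FPKM in SAP-24h and 0.22, 0 and 0.04 FPKM in Con-24h (log2 fold change 3.28 ± 0.90, adjusted p = 0.0126), lost without Con-24h replicate 2 (log2 fold change 2.68, adjusted p = 0.0698) and without SAP-24h replicate 3 (log2 fold change 2.43, adjusted p = 0.0768). In all 3 genes the second SAP-24h rat was the lowest of its group, and for Cxcl1 it lay below the controls. Cxcl2 alone of the 3 was separated between the groups in every rat and kept its call in each of the 6 fits. Cxcl3, a further CXCR2 ligand, was at 92.6, 342 and 286 FPKM in SAP-24h and 127, 85.4 and 154 FPKM in Con-24h and was not called (log2 fold change 1.08 ± 0.45, adjusted p = 0.086).

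Among the interferon-γ targets, the decline of Cxcl11 lay in the first control rat, and that of Cxcl9 lay mostly, but not wholly, in the same rat. Cxcl11 was at 0.22, 0.03 and 0.07 FPKM in SAP-24h and 9.22, 0.2 and 0.07 FPKM in Con-24h (log2 fold change −4.70 ± 1.47, adjusted p = 0.0247). Cxcl9 was at 0.32, 0.68 and 0.73 FPKM in SAP-24h and 9.45, 1.75 and 0.68 FPKM in Con-24h (log2 fold change −2.67 ± 0.92, adjusted p = 0.0392). Without Con-24h replicate 1 neither was called, with log2 fold changes of −0.96 for Cxcl9 and −0.19 for Cxcl11. Cxcl9 was lost in 4 and Cxcl11 in 3 of the 6 fits. Cxcl10, which belongs to the same group, was at 12.1, 0.52 and 0.91 FPKM in SAP-24h and 90.5, 1.19 and 0.45 FPKM in Con-24h and was not called (log2 fold change −2.58 ± 1.54, adjusted p = 0.241). Its log2 fold change ran from −5.36 to 2.64 over the 6 fits, the positive value being that without Con-24h replicate 1. Of 17 CC chemokines, Ccl3 was up-regulated and Ccl17, Ccl19 and Ccl21 were down-regulated, with a median of −0.43. That median was 0.09 without Con-24h replicate 1 and −0.75 without Con-24h replicate 3. Ccl19, a ligand of the homing receptor CCR7, was at 1.64, 1.63 and 4.29 FPKM in SAP-24h and 50.3, 14.4 and 0.62 FPKM in Con-24h (log2 fold change −3.01 ± 0.94, adjusted p = 0.025). Ccl21, the other CCR7 ligand, was at 63.8, 71.4 and 56.7 FPKM in SAP-24h and 187, 210.2 and 98.8 FPKM in Con-24h (log2 fold change −1.25 ± 0.43, adjusted p = 0.0405). Ccl19 overlapped between groups and Ccl21 did not, but the 4 calls among CC chemokines were each lost in 3 to 5 of the 6 fits, and no member was called in every fit.

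Ackr3, a scavenging receptor for CXCL12 that is expressed on endothelium, had one of the lowest p-values of all genes. It was at 543, 263 and 269.8 FPKM in SAP-24h and 71.4, 42.3 and 64.3 FPKM in Con-24h (log2 fold change 2.74 ± 0.37, adjusted p = 1.81e-04), and in Sham-24h at 58.7, 45.8 and 102 FPKM. Its ligand Cxcl12 was at 4.02, 4.63 and 3.43 FPKM in SAP-24h and 8.92, 6.79 and 5.43 FPKM in Con-24h and was not called (log2 fold change −0.68 ± 0.31, adjusted p = 0.117).

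Of 15 cytokine genes tested, Il1b, Il6, Osm and Il1rn were up-regulated, with a median of 0.07 over the list. Il1b, the fever-inducing cytokine of the inflammasome pathway, was at 28.9, 20.6 and 120.2 FPKM in SAP-24h and 11.1, 5.4 and 6.24 FPKM in Con-24h (log2 fold change 3.00 ± 0.73, adjusted p = 0.00572), lost without SAP-24h replicate 3 (log2 fold change 1.87, adjusted p = 0.0594). Il1rn, its natural receptor antagonist, was at 21.4, 29.4 and 73.4 FPKM in SAP-24h and 17.4, 6.67 and 8.93 FPKM in Con-24h (log2 fold change 2.01 ± 0.46, adjusted p = 0.00407). Il6 was at 11.04, 0.08 and 0.63 FPKM in SAP-24h and 0.86, 0.18 and 0 FPKM in Con-24h, high in 1 rat, with its other SAP-24h values inside the control range (log2 fold change 3.69 ± 1.26, adjusted p = 0.0383), and it was lost in 3 of the 6 fits. Oncostatin M (Osm) was at 2.55, 1.12 and 1.14 FPKM in SAP-24h and 0.53, 0.46 and 0.3 FPKM in Con-24h (log2 fold change 2.03 ± 0.51, adjusted p = 0.00676), lost without SAP-24h replicate 1 (log2 fold change 1.45, adjusted p = 0.062). Il1rn was thus the member of this group that kept its call with every library left out.

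Of 16 cytokine feedback inhibitors, 7 were up-regulated and none down-regulated, with a median of 0.71 and 4 to 8 called when 1 library was left out, 4 of them without Con-24h replicate 2 or SAP-24h replicate 1. Socs3, which blocks signalling from the interleukin-6 receptor family, was at 287, 104 and 89.6 FPKM in SAP-24h and 28.4, 14.1 and 19.2 FPKM in Con-24h (log2 fold change 3.12 ± 0.56, adjusted p = 8.84e-04). Bcl3, a nuclear IκB protein, was at 63.2, 27.3 and 46.6 FPKM in SAP-24h and 9.79, 5.99 and 7.29 FPKM in Con-24h (log2 fold change 2.71 ± 0.42, adjusted p = 3.84e-04). Nfkbiz, a second nuclear IκB protein, was at 8.63, 3.47 and 9.41 FPKM in SAP-24h and 2.26, 2.97 and 3.28 FPKM in Con-24h (log2 fold change 1.47 ± 0.29, adjusted p = 0.00143). These 3 genes were higher in every SAP-24h rat than in any control and were called in each of the 6 fits. Zc3h12a, an RNase that degrades cytokine mRNAs, had a log2 fold change of 1.22 ± 0.24 (adjusted p = 0.00164), lost without SAP-24h replicate 3 (log2 fold change 0.95, adjusted p = 0.0117), and the ubiquitin-editing enzyme gene Tnfaip3 was not called (log2 fold change 0.57 ± 0.28, adjusted p = 0.154).

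Acute-phase and antimicrobial genes were mostly up-regulated. Of 21 tested, 12 were up-regulated and 1 was down-regulated, with a median log2 fold change of 1.93. Between 6 members (without Con-24h replicate 2) and 13 (without SAP-24h replicate 2) were up-regulated when 1 library was left out. Lbp, the lipopolysaccharide-binding protein, was at 76.3, 80.5 and 92.6 FPKM in SAP-24h and 36.9, 22.1 and 19.5 FPKM in Con-24h (log2 fold change 1.79 ± 0.25, adjusted p = 2.31e-04). Slpi, an inhibitor of neutrophil elastase made by airway epithelium and phagocytes, was at 191, 80.8 and 271 FPKM in SAP-24h and 24.3, 17.8 and 7.12 FPKM in Con-24h (log2 fold change 3.58 ± 0.72, adjusted p = 0.00178). Ptx3, a soluble pattern-recognition protein, was at 9.47, 3.23 and 13.4 FPKM in SAP-24h and 2.9, 2.0 and 1.06 FPKM in Con-24h (log2 fold change 2.25 ± 0.49, adjusted p = 0.003). All 3 were above every control in every rat. Steap4, a metalloreductase induced by inflammatory cytokines, was at 8.71, 12.4 and 18.1 FPKM in SAP-24h and 4.62, 4.02 and 2.43 FPKM in Con-24h (log2 fold change 1.93 ± 0.47, adjusted p = 0.00632). Haptoglobin (Hp), which binds free haemoglobin, was at 53.9, 143 and 359.6 FPKM in SAP-24h and 19.2, 15.5 and 36.99 FPKM in Con-24h (log2 fold change 3.05 ± 1.01, adjusted p = 0.0337), with the call lost in 3 of the 6 fits. Lcn2, which withholds iron from bacteria, was at 814, 133 and 1382 FPKM in SAP-24h and 285, 116 and 232 FPKM in Con-24h and was not called (log2 fold change 2.00 ± 0.92, adjusted p = 0.124).

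Serpina1, encoding α1-antitrypsin, the main plasma inhibitor of elastase, was the member that fell. It was at 4.92, 7.2 and 9.32 FPKM in SAP-24h and 42.03, 23.3 and 14.4 FPKM in Con-24h (log2 fold change −1.79 ± 0.44, adjusted p = 0.00654) and was lost without Con-24h replicate 1 (log2 fold change −1.28, adjusted p = 0.057). Fibrinogen transcripts, which are abundant in liver, were near the detection limit in these lungs. Fgb had no reads in Con-24h, and the SAP-24h level was at least 13.9-fold higher than that of 3 reads over the group. Fga had a depth-corrected ratio of 47.9 (95% counting interval 8.24 to 1927), and both fibrinogen calls were lost in 3 of the 6 fits. The macroglobulin A2m, also a liver product, was at 0.48, 0.3 and 0.21 FPKM in SAP-24h and 0.05, 0.01 and 0.02 FPKM in Con-24h (log2 fold change 3.79 ± 0.90, adjusted p = 0.00489).

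Macrophage and monocyte genes moved in both directions. Of 22 tested, 5 were up-regulated and 1 was down-regulated, with a median of 0.44 and a summed level of 25834, 32085 and 24760 in SAP-24h and 19742, 20515 and 18533 in Con-24h FPKM. Cd14, the lipopolysaccharide co-receptor of monocytes and macrophages, was at 158, 74.5 and 70.96 FPKM in SAP-24h and 36.5, 35.3 and 38.9 FPKM in Con-24h (log2 fold change 1.61 ± 0.34, adjusted p = 0.00247). Vcan, a proteoglycan typical of blood monocytes, was at 8.09, 7.09 and 7.1 FPKM in SAP-24h and 1.29, 0.5 and 0.47 FPKM in Con-24h (log2 fold change 3.43 ± 0.64, adjusted p = 0.00116). Itgax, the CD11c integrin, was at 2.77, 11.04 and 9.28 FPKM in SAP-24h and 3.33, 2.71 and 1.84 FPKM in Con-24h (log2 fold change 1.65 ± 0.45, adjusted p = 0.0113). The growth factor receptor Csf1r, expressed across the lineage, was at 26.3, 38.1 and 30.7 FPKM in SAP-24h and 48.6, 53.3 and 48.7 FPKM in Con-24h and was not called (log2 fold change −0.54 ± 0.20, adjusted p = 0.0484), and the lysosomal protein Cd68 was not called either (log2 fold change 0.25 ± 0.26, adjusted p = 0.532). Ccr2, the receptor that guides monocytes out of the marrow, was at 3.18, 5.08 and 3.61 FPKM in SAP-24h and 1.26, 0.88 and 0.89 FPKM in Con-24h (log2 fold change 2.08 ± 0.68, adjusted p = 0.0315), and its call was lost in 5 of the 6 fits. The scavenger receptor Marco had a depth-corrected ratio of 58.5 (95% counting interval 10.1 to 2347), from reads that lay mostly in the second SAP-24h rat, and its call was lost without Con-24h replicate 1 (log2 fold change 4.97, adjusted p = 0.101) and without Con-24h replicate 2 (log2 fold change 4.90, adjusted p = 0.123) and without SAP-24h replicate 2 (log2 fold change 3.93, adjusted p = 0.148). Trem2, a lipid-sensing receptor of resident and scar-associated macrophages, fell, with 1.13, 1.61 and 1.19 FPKM in SAP-24h and 5.92, 6.74 and 4.3 FPKM in Con-24h (log2 fold change −1.99 ± 0.63, adjusted p = 0.0268), in 2 of the 6 fits with 1 library left out. The invariant chain Cd74 of MHC class II was at 848, 1089 and 864 FPKM in SAP-24h and 1594, 1887 and 955 FPKM in Con-24h and was not called (log2 fold change −0.54 ± 0.28, adjusted p = 0.173), and among the 10 MHC class II genes 1, RT1-DOa, was down-regulated, with its call lost in 3 of the 6 fits.

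**Figure D3:**
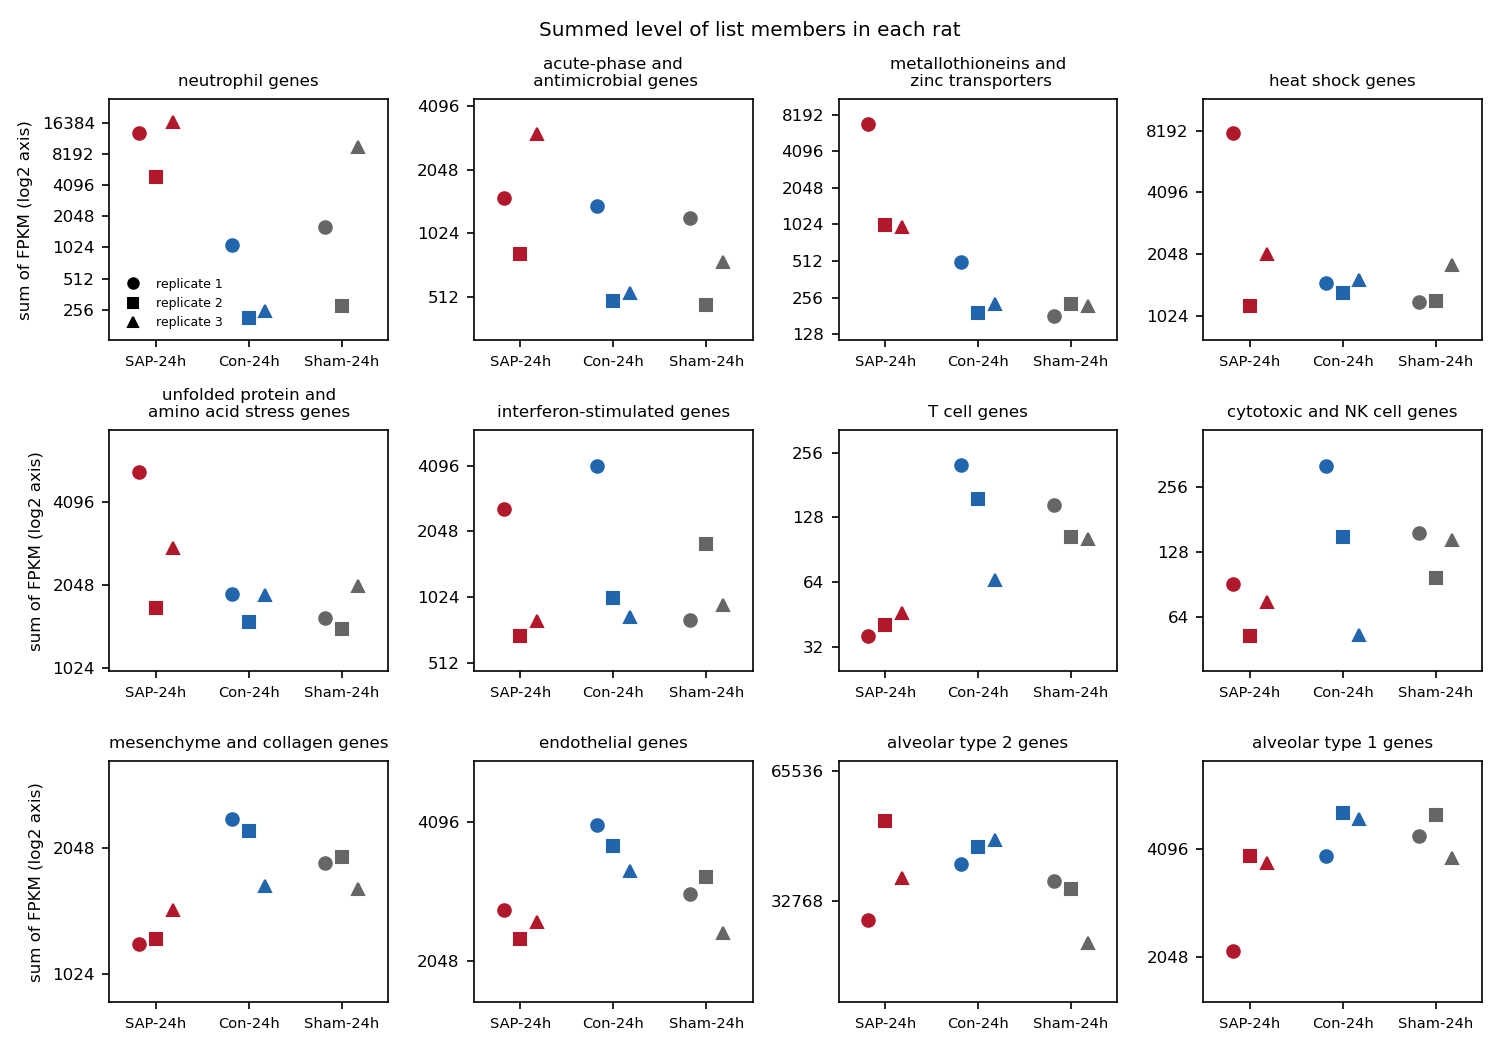
Summed FPKM of all members of 12 gene lists in each rat of SAP-24h, Con-24h and Sham-24h (log2 axis, differing between panels, symbols mark the replicate). Neutrophil genes lie at 4926 to 16856 in SAP-24h and 214 to 1071 in Con-24h, T cell genes at 35.9 to 46.1 and 65.3 to 224. Heat shock and unfolded protein genes are highest in SAP-24h replicate 1, and interferon-stimulated genes in Con-24h replicate 1.

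T cell genes were the group with the lowest median change. Of 23 tested, 19 were down-regulated and none up-regulated, with a median log2 fold change of −1.74. Their summed level was 35.9, 40.5 and 46.1 in SAP-24h and 224, 156 and 65.3 in Con-24h FPKM, without overlap, and 147, 104 and 102 FPKM in Sham-24h. The spread lay in the controls, where the first rat held more than 3 times the level of the third, while the SAP-24h rats were alike. Cd3e, a chain of the T cell receptor complex, was at 1.71, 1.63 and 2.58 FPKM in SAP-24h and 20.03, 12.9 and 4.86 FPKM in Con-24h (log2 fold change −2.56 ± 0.52, adjusted p = 0.00185). Cd6, a co-receptor of mature T cells, was at 0.26, 0.31 and 0.51 FPKM in SAP-24h and 4.69, 2.79 and 0.85 FPKM in Con-24h (log2 fold change −2.84 ± 0.58, adjusted p = 0.00201). Tcf7, a transcription factor of naive and memory T cells, was at 2.02, 4.9 and 5.29 FPKM in SAP-24h and 11.4, 14.4 and 9.67 FPKM in Con-24h (log2 fold change −1.43 ± 0.26, adjusted p = 0.00106). These 3 genes did not overlap between the groups and were called in every fit, as were Cd3d, Cd3g, Lck and Zap70. Cd8a, the co-receptor of cytotoxic T cells, was at 3.17, 2.0 and 3.25 FPKM in SAP-24h and 25.5, 11.6 and 3.87 FPKM in Con-24h (log2 fold change −2.16 ± 0.65, adjusted p = 0.0199), lost without Con-24h replicate 1 (log2 fold change −1.34, adjusted p = 0.171) and without SAP-24h replicate 1 (log2 fold change −2.32, adjusted p = 0.0513) and without SAP-24h replicate 2 (log2 fold change −1.95, adjusted p = 0.0645). Cd4 was at 5.28, 9.73 and 4.92 FPKM in SAP-24h and 16.98, 15.9 and 8.48 FPKM in Con-24h and was not called (log2 fold change −0.94 ± 0.34, adjusted p = 0.0533). The count fell to 7 members without Con-24h replicate 1, was 10 without Con-24h replicate 2 or SAP-24h replicate 1, and rose to 22 without Con-24h replicate 3. When the 6 libraries were fitted alone, none of the 19 T cell genes was called, and neither was any of the 12 heat shock or 7 unfolded protein genes called higher in the full model. Up-regulated neutrophil genes then numbered 12 instead of 19 and acute-phase and antimicrobial genes 4 instead of 12. Feedback inhibitors numbered 2 instead of 7 and immediate early genes 1 instead of 6. The lists of CXC chemokines, CC chemokines, cytokines, cytotoxic and natural killer cell genes, and metallothioneins and zinc transporters had no call in that fit.

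Cytotoxic and natural killer cell genes had a median of −1.70, with 5 of 14 down-regulated and 1 up-regulated. The median was −0.91 without Con-24h replicate 1 and −2.05 without Con-24h replicate 3. Ctsw, a protease of cytotoxic lymphocytes, was at 1.08, 0.56 and 1.11 FPKM in SAP-24h and 17.7, 7.98 and 2.82 FPKM in Con-24h (log2 fold change −3.25 ± 0.67, adjusted p = 0.0021). Perforin (Prf1), which forms pores in target cells, was at 9.28, 6.8 and 7.4 FPKM in SAP-24h and 55.4, 31.3 and 9.29 FPKM in Con-24h (log2 fold change −1.90 ± 0.63, adjusted p = 0.032), and the third control rat was at the level of SAP-24h. Ctsw alone kept its call, since leaving out Con-24h replicate 1 or 2, or any SAP-24h library, left 1 member down-regulated and leaving out Con-24h replicate 3 left 6. The up-regulated member, Cst7, a cystatin that is also made by neutrophils, was at 37.4, 13.98 and 32.97 FPKM in SAP-24h and 17.8, 8.48 and 4.3 FPKM in Con-24h (log2 fold change 1.60 ± 0.50, adjusted p = 0.0262), and its call was lost in 4 of the 6 fits. Of 17 B cell and plasma cell genes, Fcer2 and Tnfrsf17 were down-regulated, with a median of −0.58, and Fcer2 was lost in 4 of the 6 fits. Tnfrsf17, the plasma cell receptor BCMA, was at 0.38, 0.2 and 0.53 FPKM in SAP-24h and 0.86, 3.63 and 1.16 FPKM in Con-24h (log2 fold change −2.22 ± 0.60, adjusted p = 0.0107), and it was lost without Con-24h replicate 2 (log2 fold change −1.31, adjusted p = 0.154).

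None of the 28 interferon-stimulated genes was called by edgeR, although the median was −0.71, 1 had an unadjusted p under 0.05 and DESeq2 called 1 lower. Their summed level was 2575, 680 and 796 in SAP-24h and 4090, 1007 and 828 in Con-24h FPKM, highest in the first rat of each group. Mx1, an antiviral GTPase, was at 7.79, 2.63 and 1.45 FPKM in SAP-24h and 136, 3.2 and 1.84 FPKM in Con-24h (log2 fold change −3.41 ± 1.46, adjusted p = 0.0976). Irf7, the transcription factor of the type I interferon response, was at 57.3, 9.32 and 8.09 FPKM in SAP-24h and 345, 17.02 and 9.84 FPKM in Con-24h (log2 fold change −2.14 ± 1.31, adjusted p = 0.254). Isg15, a ubiquitin-like protein, was at 68.1, 3.52 and 5.44 FPKM in SAP-24h and 237, 6.19 and 2.62 FPKM in Con-24h (log2 fold change −1.49 ± 1.37, adjusted p = 0.471). The list median was between −1.52 (without SAP-24h replicate 1) and 0.94 (without Con-24h replicate 1), and it was negative in the 5 fits that kept Con-24h replicate 1.

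Heat shock genes were up-regulated in 12 of 16 cases, with a median log2 fold change of 1.38 and 1 member down-regulated. Most of the increase lay in the first SAP-24h rat. The summed level was 7962, 1145 and 2057 in SAP-24h and 1486, 1327 and 1530 in Con-24h FPKM, and the second SAP-24h rat lay below every control. Hspa1b, the stress-inducible HSP70, was at 170.4, 3.49 and 39.3 FPKM in SAP-24h and 2.8, 3.8 and 5.98 FPKM in Con-24h (log2 fold change 4.27 ± 0.92, adjusted p = 0.00264). Hsph1, an HSP110 that recharges HSP70, was at 306, 27.4 and 58.5 FPKM in SAP-24h and 17.8, 11.9 and 21.9 FPKM in Con-24h (log2 fold change 3.11 ± 0.70, adjusted p = 0.00342), lost without SAP-24h replicate 1 (log2 fold change 1.40, adjusted p = 0.0907). Hspb1, the small heat shock protein HSP27, was at 4436, 306 and 643 FPKM in SAP-24h and 555, 442 and 462 FPKM in Con-24h (log2 fold change 2.08 ± 0.61, adjusted p = 0.0176). Without SAP-24h replicate 1, Hspa1b was the only member still up-regulated (log2 fold change 2.42) and the median was 0.57, whereas without SAP-24h replicate 2 there were 14. Counts of 4 without Con-24h replicate 2 and 7 without Con-24h replicate 1 lay between these. Cryab, a small heat shock protein abundant in muscle, fell in every rat, at 60.2, 67.9 and 91.4 FPKM in SAP-24h and 148, 186 and 179 FPKM in Con-24h (log2 fold change −1.11 ± 0.27, adjusted p = 0.00574). Hspa8 and Hsp90aa1, which are abundant in most tissues, were listed near 1 FPKM or at 0 in several libraries, and both are among the 12 members called, each lost without SAP-24h replicate 1. Genes with near-identical copies lose reads when reads that map to several places are discarded, and these entries are uncertain. Hspa1a, listed beside Hspa1b, was not tested, and the same limit may apply to Hspa1b.

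Of the heat shock genes, 12 had a RefSeq promoter matched by symbol and chromosome. Hspa8, which RefSeq places on another chromosome, was not counted, although its promoter there held 2 matches. The promoter of Hsph1 (chr12:10427118-10427367 (plus strand), RefSeq, GRCr8) is shown because it was 1 of 2 among the 12 that held a heat shock element (GAA, TTC and GAA, each separated by any 2 bases), read on either strand and marked in capitals.
Hsph1: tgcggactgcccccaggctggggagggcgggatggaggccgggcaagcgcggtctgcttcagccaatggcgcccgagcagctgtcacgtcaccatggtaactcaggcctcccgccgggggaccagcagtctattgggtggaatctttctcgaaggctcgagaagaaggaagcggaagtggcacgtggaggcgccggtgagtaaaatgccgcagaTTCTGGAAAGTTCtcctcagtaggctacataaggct
The match began 36 bases before the start site, and 0.663% of all promoters held the motif in this window. The other was Hspd1, the mitochondrial chaperonin, which was at 188, 38.5 and 58.9 FPKM in SAP-24h and 38.1, 32.5 and 42.98 FPKM in Con-24h (log2 fold change 1.50 ± 0.36, adjusted p = 0.00555) and was lost without SAP-24h replicate 1 (log2 fold change 0.44, adjusted p = 0.168).

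Genes of the unfolded protein and amino acid stress responses showed the same dependence on 1 rat. Of 25 tested, 7 were up-regulated and none down-regulated (median 0.78), all of them chaperones or luminal proteins of the endoplasmic reticulum. Without SAP-24h replicate 1 none was called and the median was 0.33, without Con-24h replicate 2 there were 4, and without SAP-24h replicate 2 there were 12. Hspa5, the lumenal chaperone BiP, was at 849, 141 and 328 FPKM in SAP-24h and 132, 95.8 and 144 FPKM in Con-24h (log2 fold change 1.99 ± 0.46, adjusted p = 0.0041). Dnajb9, a co-chaperone that restrains the sensor IRE1, was at 26.2, 12.2 and 21.2 FPKM in SAP-24h and 6.83, 8.84 and 13.4 FPKM in Con-24h (log2 fold change 1.18 ± 0.23, adjusted p = 0.00165). Manf, a secreted stress protein, was at 548, 129.8 and 263 FPKM in SAP-24h and 152, 117 and 153 FPKM in Con-24h (log2 fold change 1.32 ± 0.32, adjusted p = 0.00555). Hspa5 and Dnajb9 were above the highest control in 2 of the 3 SAP-24h rats, with the second rat nearest the controls. Among transcription factors of the response, Atf4 was at 0.98 ± 0.29 (adjusted p = 0.0191), Xbp1 at 0.64 ± 0.19 (adjusted p = 0.0176) and Ddit3 at 0.58 ± 0.36 (adjusted p = 0.262) on the log2 scale, and none of these 3 was called.

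Metallothioneins, small cysteine-rich proteins that bind zinc and copper, were among the transcripts with the largest gain in level. Mt2A was at 4646, 514 and 532 FPKM in SAP-24h and 271, 23.02 and 28.2 FPKM in Con-24h (log2 fold change 4.33 ± 1.09, adjusted p = 0.00754), lost without SAP-24h replicate 1 (log2 fold change 2.35, adjusted p = 0.103). The Mt1 entry on chromosome 17, 1 of 2 entries with this symbol, was at 2189.7, 342 and 302 FPKM in SAP-24h and 146, 69.4 and 81.9 FPKM in Con-24h (log2 fold change 3.44 ± 0.65, adjusted p = 0.00125), but RefSeq places Mt1 on another chromosome, so the identity of this entry is uncertain. Without SAP-24h replicate 1 its log2 fold change was 1.78. Mt2A and the Mt1 entry were highest in the first rat of each group, and the first control rat held about 10 times the Mt2A level of the other controls. Slc39a8, the zinc importer ZIP8, was at 32.2, 55.7 and 44.7 FPKM in SAP-24h and 11.4, 17.1 and 34.6 FPKM in Con-24h (log2 fold change 1.19 ± 0.37, adjusted p = 0.0238), lost in 3 of the 6 fits. These 3 were the DEGs among 8 metallothionein and zinc transporter genes tested. The promoter of Mt2A (chr19:10838709-10838958 (minus strand), RefSeq, GRCr8) is shown with matches to TGCNCNC on either strand in capitals. This pattern is a loose form of the core of the metal response element, with any base allowed at each N, so not every match need be such an element.
Mt2A: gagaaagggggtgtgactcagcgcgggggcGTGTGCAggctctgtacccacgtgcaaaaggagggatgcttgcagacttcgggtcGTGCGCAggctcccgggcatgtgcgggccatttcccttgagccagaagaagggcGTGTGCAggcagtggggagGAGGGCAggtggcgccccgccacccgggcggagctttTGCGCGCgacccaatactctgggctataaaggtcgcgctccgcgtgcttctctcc
The 5 matches began 220, 165, 111, 92 and 55 bases before the start site. This short and loose pattern occurred in 43.4% of all promoters and in 4 of the 5 members with a matched promoter.

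Immediate early genes, which encode transcription factors induced within minutes of a stimulus, were up-regulated in 6 of 19 cases, with a median of 0.61 and none down-regulated. Junb was at 396, 134 and 140.03 FPKM in SAP-24h and 86.7, 44.5 and 59.6 FPKM in Con-24h (log2 fold change 1.97 ± 0.39, adjusted p = 0.0016). Fosl2 was at 17.2, 11.04 and 9.6 FPKM in SAP-24h and 4.7, 3.37 and 5.17 FPKM in Con-24h (log2 fold change 1.66 ± 0.28, adjusted p = 7.04e-04). Nr4a3, an orphan nuclear receptor, was at 2.62, 1.29 and 0.97 FPKM in SAP-24h and 0.38, 0.11 and 0.11 FPKM in Con-24h (log2 fold change 3.18 ± 0.62, adjusted p = 0.00142). Each was higher in all 3 SAP-24h rats than in any control, while Fos (log2 fold change 1.13 ± 0.54, adjusted p = 0.141) and Egr1 (log2 fold change 1.76 ± 0.81, adjusted p = 0.121) were not called. Btg1, an antiproliferative factor, was at 413, 293 and 294 FPKM in SAP-24h and 153, 156 and 157 FPKM in Con-24h (log2 fold change 1.24 ± 0.19, adjusted p = 3.62e-04). Leaving out SAP-24h replicate 1 left 3 members called, and Btg1 was then short of 2-fold. The list median was 0.22 in that fit and 0.34 without Con-24h replicate 2, and it was 1.19 without Con-24h replicate 1 and 1.12 without Con-24h replicate 3.

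Among 18 circadian clock genes, 2 were up-regulated and 1 was down-regulated. Nfil3, a repressor of D-box genes, was at 47.6, 16.01 and 25.3 FPKM in SAP-24h and 6.38, 4.26 and 7.07 FPKM in Con-24h (log2 fold change 2.48 ± 0.41, adjusted p = 6.04e-04). Dbp, the activator that opposes it on the same element, was at 6.55, 18.5 and 6.04 FPKM in SAP-24h and 89.8, 61.7 and 24.3 FPKM in Con-24h (log2 fold change −2.39 ± 0.66, adjusted p = 0.0129). Nfil3 was called in every fit, and the call of the other up-regulated member, Npas2, was lost in 3. Between 1 and 4 members were up-regulated when 1 library was left out. The Dbp call was lost in 3 fits, without Con-24h replicate 1, SAP-24h replicate 1 or SAP-24h replicate 3.

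Genes induced by low oxygen and genes of glycolysis were up-regulated in 6 of 25 cases and down-regulated in none, with a median of 0.39. Slc2a3, the glucose transporter GLUT3, which is the main form in neutrophils, was at 13.1, 9.76 and 14.97 FPKM in SAP-24h and 1.89, 1.65 and 1.14 FPKM in Con-24h (log2 fold change 3.14 ± 0.59, adjusted p = 0.00125). Slc16a3, the lactate exporter MCT4, was at 16.5, 18.2 and 29.97 FPKM in SAP-24h and 9.69, 5.59 and 5.29 FPKM in Con-24h (log2 fold change 1.76 ± 0.30, adjusted p = 6.67e-04). Bnip3, a mitophagy receptor, was at 41.0, 50.04 and 46.98 FPKM in SAP-24h and 19.7, 20.2 and 29.9 FPKM in Con-24h (log2 fold change 1.11 ± 0.28, adjusted p = 0.00675). These 3 kept their calls in every fit, whereas those of Hk2, Hmox1 and P4ha1 were lost without Con-24h replicate 2 or SAP-24h replicate 1. The lactate dehydrogenase gene Ldha was below 2-fold (log2 fold change 0.68 ± 0.18, adjusted p = 0.00872). Slc2a1, the glucose transporter GLUT1 of most cells, was also below 2-fold (log2 fold change 0.38 ± 0.13, adjusted p = 0.0393). The summed level of neutrophil genes rose in the same libraries, and its part in the rise of Slc2a3 was not tested.

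Endothelial genes were called in both directions, although 5 of 23 had a positive log2 fold change. Without overlap, 12 were lower and 2 higher, beside 22.3% and 9.87% over all genes tested. Of 23 tested, 2 were up-regulated and 3 down-regulated, with a median of −0.39 and a summed level of 2637, 2290 and 2488 in SAP-24h and 4039, 3638 and 3202 in Con-24h FPKM. The VEGF receptor Kdr was at 14.7, 26.99 and 23.7 FPKM in SAP-24h and 65.4, 53.7 and 48.8 FPKM in Con-24h (log2 fold change −1.25 ± 0.23, adjusted p = 0.00111), with no overlap between the groups. Flt1, the VEGF receptor that also acts as a decoy, was at 76.3, 46.8 and 38.9 FPKM in SAP-24h and 23.1, 22.7 and 36.2 FPKM in Con-24h (log2 fold change 1.13 ± 0.33, adjusted p = 0.0161), lost in 3 of the 6 fits. Ednrb, the endothelin B receptor of aerocyte capillaries, was at 48.3, 46.6 and 47.6 FPKM in SAP-24h and 15.9, 18.1 and 25.4 FPKM in Con-24h (log2 fold change 1.39 ± 0.24, adjusted p = 7.18e-04). Car4, a carbonic anhydrase on the surface of the same capillary cells, was at 19.1, 14.2 and 44.4 FPKM in SAP-24h and 96.2, 88.7 and 49.5 FPKM in Con-24h (log2 fold change −1.49 ± 0.40, adjusted p = 0.0104), lost without SAP-24h replicate 1 (log2 fold change −1.35, adjusted p = 0.0549). Opposite changes were therefore seen in pairs of genes expressed in the same vessels. Aplnr, the apelin receptor, also fell (log2 fold change −1.18 ± 0.39, adjusted p = 0.0309), with its call lost in 3 of the 6 fits. The junction gene Cdh5, expressed by all endothelial cells, was at 139, 119 and 121 FPKM in SAP-24h and 199, 180.1 and 165 FPKM in Con-24h and was not called (log2 fold change −0.39 ± 0.18, adjusted p = 0.13). Plvap, which forms the diaphragms of fenestrae, was at 499.7, 407 and 339 FPKM in SAP-24h and 1018, 1019.6 and 784 FPKM in Con-24h (log2 fold change −1.04 ± 0.23, adjusted p = 0.003), close to the 2-fold limit and below it in 3 of the 6 fits. The Sham-24h mean of Plvap, 581 FPKM, lay nearer to that of SAP-24h (415 FPKM) than to that of Con-24h (941 FPKM).

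Genes of endothelial activation and fibrinolysis gave 4 up-regulated and 1 down-regulated of 17, and 2 up-regulated without Con-24h replicate 2 or SAP-24h replicate 1. Procr, the endothelial protein C receptor, was up-regulated but lost in 3 of the 6 fits. Selp, the P-selectin on which leucocytes roll, was at 50.5, 5.11 and 6.48 FPKM in SAP-24h and 4.63, 1.74 and 1.69 FPKM in Con-24h (log2 fold change 3.13 ± 0.80, adjusted p = 0.00795), and its call was lost without Con-24h replicate 2 (log2 fold change 2.90, adjusted p = 0.0507) and without SAP-24h replicate 1 (log2 fold change 1.18, adjusted p = 0.233). Plat, the tissue plasminogen activator, was at 547, 249 and 219 FPKM in SAP-24h and 94.2, 79.01 and 103 FPKM in Con-24h (log2 fold change 2.03 ± 0.43, adjusted p = 0.00236). Plaur, the urokinase receptor, was at 30.8, 30.3 and 32.5 FPKM in SAP-24h and 13.1, 12.1 and 17.4 FPKM in Con-24h (log2 fold change 1.26 ± 0.24, adjusted p = 0.00128). Plat and Plaur were separated in every rat, while Plau, the urokinase itself, was lower, at 2.99, 5.01 and 4.85 FPKM in SAP-24h and 7.32, 10.8 and 11.9 FPKM in Con-24h (log2 fold change −1.11 ± 0.35, adjusted p = 0.0251), in 3 of the 6 fits. The adhesion genes Icam1 (log2 fold change −0.32 ± 0.26, adjusted p = 0.402) and Vcam1 (log2 fold change 0.57 ± 0.36, adjusted p = 0.272) were not called. Of 23 coagulation and complement genes, F5, F13a1 and C5ar1 were up-regulated, F13a1 being lost in 3 of the 6 fits. C5ar1, the receptor for the anaphylatoxin C5a, was at 29.6, 40.05 and 40.4 FPKM in SAP-24h and 17.1, 17.1 and 14.4 FPKM in Con-24h (log2 fold change 1.30 ± 0.26, adjusted p = 0.00159), and coagulation factor F5 was at 2.74, 4.07 and 2.84 FPKM in SAP-24h and 0.61, 0.48 and 1.67 FPKM in Con-24h (log2 fold change 1.94 ± 0.46, adjusted p = 0.00499).

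Among matrix-degrading enzymes and their inhibitors, 4 of 13 members were up-regulated and none down-regulated (median 0.40, and 0.10 without SAP-24h replicate 2). Adamts9, a protease of versican, was at 12.9, 6.96 and 9.64 FPKM in SAP-24h and 1.7, 2.37 and 1.84 FPKM in Con-24h (log2 fold change 2.46 ± 0.34, adjusted p = 2.23e-04). Adamts4, an aggrecanase, was at 8.21, 1.26 and 2.06 FPKM in SAP-24h and 0.48, 0.11 and 0.15 FPKM in Con-24h (log2 fold change 4.14 ± 0.79, adjusted p = 0.00132), with a log2 fold change of 2.82 without SAP-24h replicate 1. Timp1, an inhibitor of metalloproteinases, was at 518, 164 and 265 FPKM in SAP-24h and 146, 65.3 and 64.03 FPKM in Con-24h (log2 fold change 1.93 ± 0.41, adjusted p = 0.00249). In all 3 genes every SAP-24h rat exceeded every control, and each was called with any library left out, whereas Adamts1 was lost without Con-24h replicate 2 (log2 fold change 1.06, adjusted p = 0.087) and without SAP-24h replicate 1 (log2 fold change 0.60, adjusted p = 0.224).

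Mesenchyme and collagen genes had a median of −0.67, with 4 of 26 down-regulated and 3 up-regulated. Col1a2, counted among the 4, was listed at 0.03, 0.08 and 0.12 FPKM in SAP-24h and 0.34, 0.45 and 0.12 FPKM in Con-24h, far below Col1a1, and this entry is uncertain. The summed level was 1208, 1243 and 1455 in SAP-24h and 2391, 2246 and 1660 in Con-24h FPKM. Col3a1, a fibrillar collagen, was at 28.5, 51.2 and 80.5 FPKM in SAP-24h and 182, 297 and 96.6 FPKM in Con-24h (log2 fold change −1.75 ± 0.47, adjusted p = 0.0116), lost without Con-24h replicate 2 (log2 fold change −1.28, adjusted p = 0.096) and without SAP-24h replicate 1 (log2 fold change −1.47, adjusted p = 0.0694). Postn, a matricellular protein, was at 13.2, 12.6 and 22.2 FPKM in SAP-24h and 67.8, 69.5 and 23.4 FPKM in Con-24h (log2 fold change −1.63 ± 0.40, adjusted p = 0.00616). Tbx2, a transcription factor of lung mesenchyme, was at 23.96, 30.7 and 30.2 FPKM in SAP-24h and 78.3, 90.6 and 74.5 FPKM in Con-24h (log2 fold change −1.40 ± 0.24, adjusted p = 7.18e-04). Col3a1, Postn and Tbx2 were separated between groups, although the third control rat was close to SAP-24h for both matrix genes. Col1a1 was at 7.33, 34.2 and 52.5 FPKM in SAP-24h and 112, 91.4 and 56.6 FPKM in Con-24h and was not called (log2 fold change −1.38 ± 0.53, adjusted p = 0.0618). The fibronectin gene Fn1 rose, at 111, 94.9 and 81.6 FPKM in SAP-24h and 46.2, 61.2 and 37.3 FPKM in Con-24h (log2 fold change 1.12 ± 0.24, adjusted p = 0.00282), as did Pdgfra, the growth factor receptor of alveolar fibroblasts (log2 fold change 1.21 ± 0.28, adjusted p = 0.0041). Fn1 was lost without SAP-24h replicate 1 or Con-24h replicate 3, and Pdgfra without SAP-24h replicate 1. The number of members down-regulated ran from 2 without Con-24h replicate 2 to 8 without Con-24h replicate 3. The proteoglycan Bgn, chosen for its large difference in level, was at 61.9, 103 and 102 FPKM in SAP-24h and 278, 319 and 153 FPKM in Con-24h (log2 fold change −1.38 ± 0.33, adjusted p = 0.00555).

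**Figure D4:**
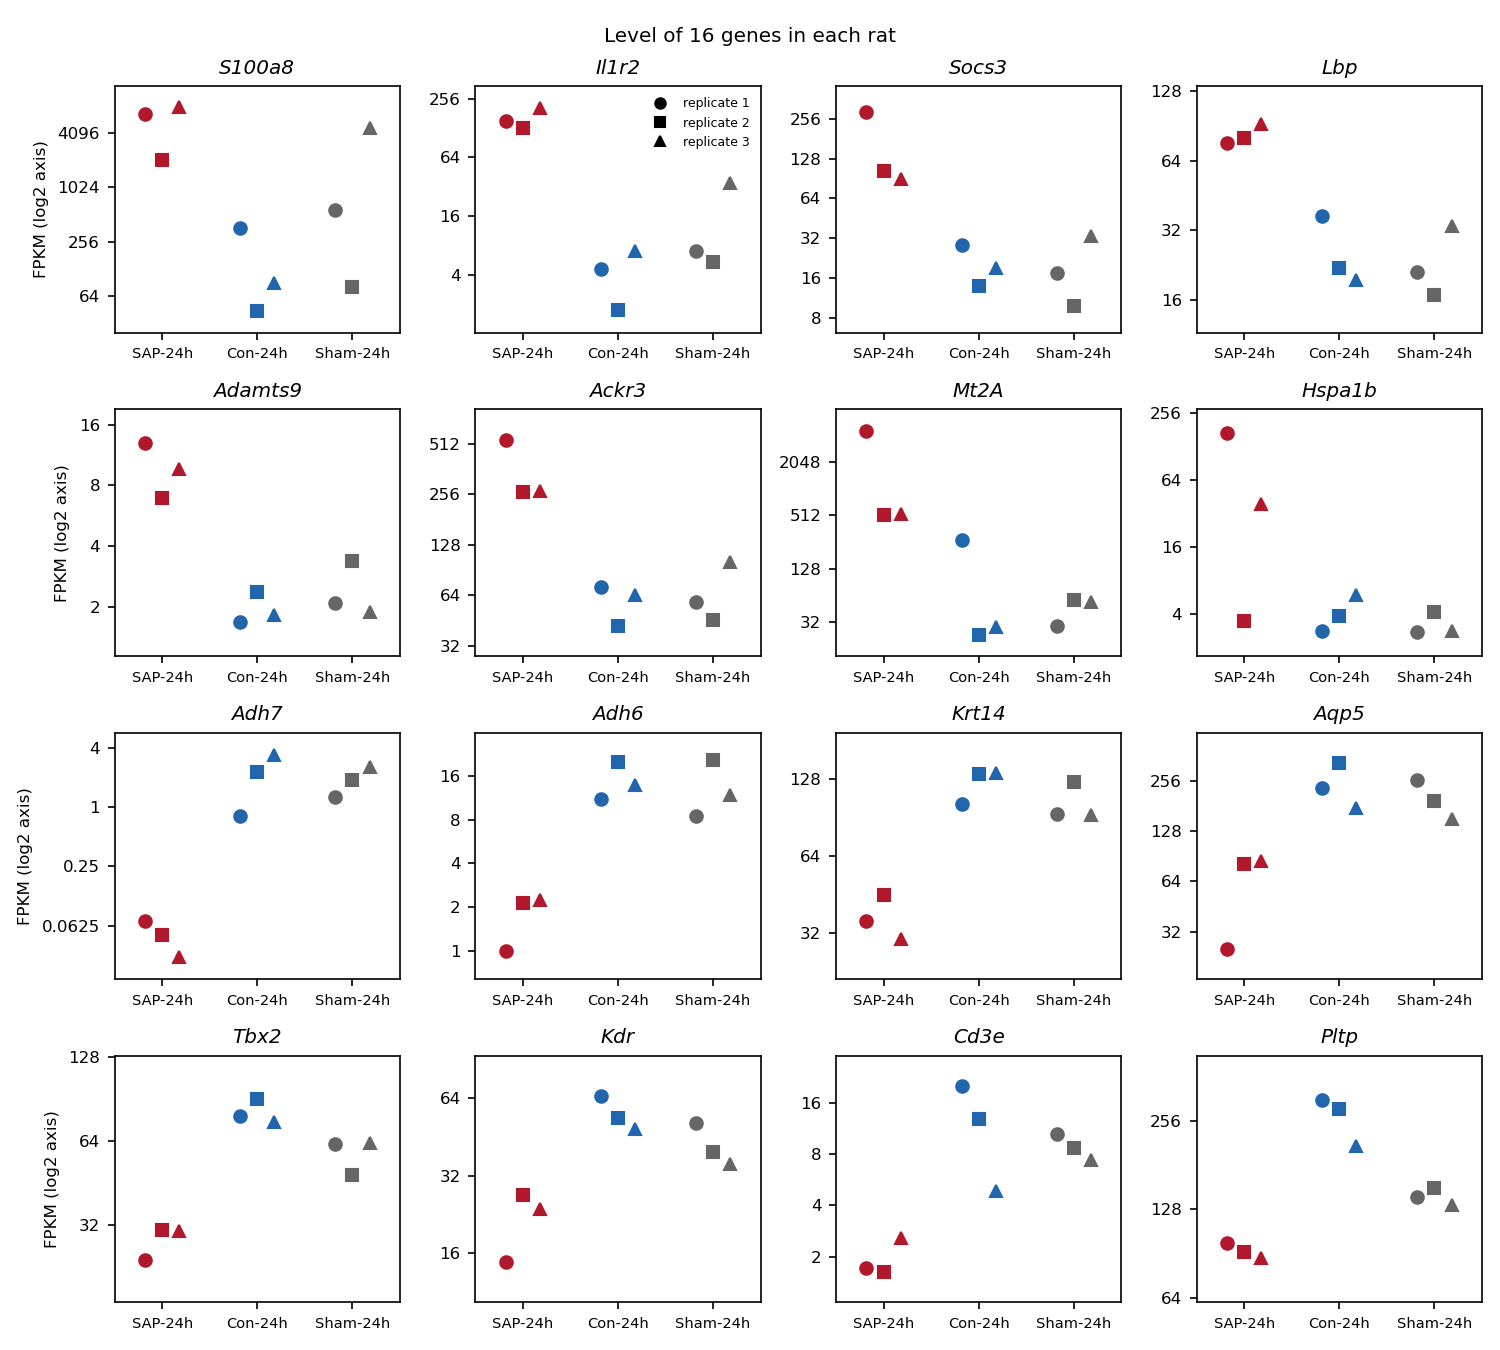
FPKM of 16 genes in each rat of SAP-24h, Con-24h and Sham-24h (log2 axis, differing between panels, symbols mark the replicate). Il1r2, Socs3, Lbp, Adamts9 and Ackr3 were higher and Adh7, Adh6, Krt14, Aqp5, Tbx2, Kdr, Cd3e and Pltp lower in every SAP-24h rat than in any control. The rule that named Il1r2, Ackr3, Adh7, Aqp5 and Pltp required such separation. S100a8 and Il1r2 of the third Sham-24h rat lie above the other Sham rats.

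In the epithelium, genes of alveolar type 2 cells showed no DEG among 18 tested (median −0.07), and their summed level was 29573, 50327 and 36966 in SAP-24h and 39825, 43584 and 45307 in Con-24h FPKM. The median of 16 alveolar type 1 genes was −0.39, with −0.12 without SAP-24h replicate 1 and −0.56 without SAP-24h replicate 2. Between 0 and 3 were down-regulated when 1 library was left out, and 1 with all libraries. It was Aqp5, the apical water channel of type 1 cells, at 25.2, 80.8 and 85.2 FPKM in SAP-24h and 231, 329 and 176 FPKM in Con-24h (log2 fold change −1.85 ± 0.50, adjusted p = 0.0114), lost without Con-24h replicate 2 (log2 fold change −1.57, adjusted p = 0.063) and without SAP-24h replicate 1 (log2 fold change −1.49, adjusted p = 0.0669). Ager, the receptor RAGE and the most type 1-specific member, was at 368, 991 and 934 FPKM in SAP-24h and 1342, 1889 and 1627 FPKM in Con-24h, a log2 fold change of −0.98 ± 0.33 (adjusted p = 0.0367) that fell just short of 2-fold. Pdpn, the podoplanin of type 1 cells, was at 95.6, 143 and 155 FPKM in SAP-24h and 228, 299 and 262 FPKM in Con-24h and was not called (log2 fold change −0.89 ± 0.33, adjusted p = 0.0595). All 3 genes were lower in each SAP-24h rat than in any control, which the rule that named Aqp5 required, and the first SAP-24h rat was the lowest. Of the 16 type 1 genes, 6 were lower without overlap, beside 22.3% of all genes tested. Of 50 ciliated cell genes 1, Zmynd12, was down-regulated, with a median of −0.20. That median ran from −0.26 without Con-24h replicate 2 to −0.06 without Con-24h replicate 1. The summed level of ciliated cell genes was 449, 742 and 775 in SAP-24h and 1161, 1022 and 1052 in Con-24h FPKM, lower in every SAP-24h rat. Of the 50 genes, 10 were lower and 0 higher without overlap, beside 22.3% and 9.87% of all genes tested. Of 17 club and goblet cell genes none was called, with Scgb1a1, the club cell secretoglobin, at 36900.1, 46742 and 38096 FPKM in SAP-24h and 41619, 36761 and 35563 FPKM in Con-24h (log2 fold change 0.22 ± 0.24, adjusted p = 0.551).

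Keratins and squamous genes were divided, with 3 of 16 up-regulated and 3 down-regulated, and 2 to 3 up-regulated and 2 to 5 down-regulated when 1 library was left out. Of the up-regulated members, Krt16 was lost in 5 of the 6 fits. Krt14, a keratin of basal cells, was at 35.4, 44.98 and 30.2 FPKM in SAP-24h and 102, 133 and 135 FPKM in Con-24h (log2 fold change −1.62 ± 0.29, adjusted p = 8.71e-04). Krt19, a keratin of simple and airway epithelium, was at 28.4, 47.2 and 27.2 FPKM in SAP-24h and 87.3, 133 and 162 FPKM in Con-24h (log2 fold change −1.77 ± 0.35, adjusted p = 0.00165). Slurp1, a secreted ligand of nicotinic receptors in squamous epithelium, was at 3.67, 21.2 and 22.4 FPKM in SAP-24h and 0.87, 0.5 and 0.66 FPKM in Con-24h (log2 fold change 4.62 ± 1.13, adjusted p = 0.00621). These 3 were called in every fit without overlap between the groups. Krt81 rose from below 0.2 FPKM in each control, with 0.29, 1.22 and 6.95 FPKM in SAP-24h and 0.1, 0.14 and 0.06 FPKM in Con-24h (log2 fold change 4.84 ± 1.03, adjusted p = 0.00249), and its log2 fold change was 2.99 without SAP-24h replicate 3. Krt17 was high in 1 control rat, with 0.36, 0.21 and 0.26 FPKM in SAP-24h and 10.3, 0.59 and 1.4 FPKM in Con-24h (log2 fold change −3.76 ± 0.94, adjusted p = 0.00676), and was lost without Con-24h replicate 1 (log2 fold change −1.70, adjusted p = 0.163). Krt76, outside the list, was at 0.49, 0.82 and 0.41 FPKM in SAP-24h and 5.41, 10.7 and 1.84 FPKM in Con-24h (log2 fold change −3.27 ± 0.58, adjusted p = 9.14e-04).

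Adh7 (ENSRNOG00000032959, chromosome 2), which oxidises ethanol and retinol in surface epithelia, was at 0.07, 0.05 and 0.03 FPKM in SAP-24h and 0.82, 2.27 and 3.43 FPKM in Con-24h (log2 fold change −5.24 ± 0.83, adjusted p = 4.04e-04), and in Sham-24h at 1.27, 1.89 and 2.58 FPKM. Adh6 was at 0.99, 2.14 and 2.23 FPKM in SAP-24h and 11.2, 20.1 and 13.9 FPKM in Con-24h (log2 fold change −2.96 ± 0.45, adjusted p = 3.67e-04), and in Sham-24h at 8.48, 20.6 and 11.8 FPKM. Aldh1a7, a relative of the retinal dehydrogenases, was at 0.28, 0.2 and 0.11 FPKM in SAP-24h and 7.4, 7.57 and 4.69 FPKM in Con-24h (log2 fold change −4.89 ± 1.25, adjusted p = 0.00829), with Sham-24h at 6.26, 0.26 and 1.01 FPKM. For Adh7 and Adh6 the Sham-24h rats overlapped Con-24h, while for Aldh1a7 replicate 2 of Sham-24h was at the SAP-24h level. Adh7 and Adh6 were the down-regulated members among 19 aryl hydrocarbon receptor and drug-metabolising genes, of which Cyp1b1 was up-regulated, lost without SAP-24h replicate 1 (log2 fold change 0.86, adjusted p = 0.109). Cyp1a1, the classical target of the aryl hydrocarbon receptor, was at 3.6, 15.5 and 7.88 FPKM in SAP-24h and 7.06, 22.7 and 18.1 FPKM in Con-24h and was not called (log2 fold change −0.72 ± 0.94, adjusted p = 0.628). Gstp1, a glutathione transferase, was at 209, 171 and 151 FPKM in SAP-24h and 462, 408 and 318 FPKM in Con-24h (log2 fold change −1.03 ± 0.19, adjusted p = 0.001), near 2-fold and below it in 4 of the 6 fits. The Sham-24h mean of Gstp1, 226 FPKM, lay nearer to that of SAP-24h (177 FPKM) than to that of Con-24h (396 FPKM).

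Other genes with the largest declines came from no single list. Tubb4a, a β-tubulin typical of brain, was at 0.2, 0.2 and 0.15 FPKM in SAP-24h and 4.5, 4.2 and 2.32 FPKM in Con-24h (log2 fold change −4.19 ± 0.66, adjusted p = 3.84e-04). Col6a4, a collagen VI chain, had a log2 fold change of −3.34 ± 0.56 (adjusted p = 6.41e-04), and Igsf23 one of −3.55 ± 0.79 (adjusted p = 0.00324). Mean levels of Igsf23 were 0.26 FPKM in SAP-24h, 3.38 FPKM in Con-24h and 0.93 FPKM in Sham-24h, the last nearer to SAP-24h. The intestinal transcription factor gene Cdx1 was low in both groups, at 0.03, 0.16 and 0.11 FPKM in SAP-24h and 1.1, 1.3 and 0.93 FPKM in Con-24h (log2 fold change −3.28 ± 0.81, adjusted p = 0.00656). These 4 genes kept their calls in each fit, and a lack of overlap between the groups was part of the rule that named them. Calcb, which encodes β-CGRP, a neuropeptide, was at 0.06, 0.08 and 0.03 FPKM in SAP-24h and 3.82, 0.16 and 0.19 FPKM in Con-24h (log2 fold change −4.38 ± 1.23, adjusted p = 0.0139), lost in 3 of the 6 fits, with a log2 fold change of −1.41 without Con-24h replicate 1. Kcne5 (log2 fold change −4.16 ± 1.26, adjusted p = 0.0207) and the protease gene Klk6 (log2 fold change −3.53 ± 1.06, adjusted p = 0.0197) also met the rule but were lost in 3 and 4 of the 6 fits. Rps6 was at 3.9, 1.74 and 2.74 FPKM in SAP-24h and 4.17, 105 and 107 FPKM in Con-24h (log2 fold change −4.55 ± 1.60, adjusted p = 0.0435), lost in 5 of the 6 fits, and since ribosomal protein genes have near-identical copies, this entry is uncertain.

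Genes of lipid transport and synthesis included DEGs of both directions. Pltp, the phospholipid transfer protein, was at 98.01, 91.2 and 87.5 FPKM in SAP-24h and 300.3, 280 and 209.5 FPKM in Con-24h (log2 fold change −1.38 ± 0.18, adjusted p = 1.81e-04), among the lowest p-values of all genes, and in Sham-24h at 141, 151 and 132 FPKM, between the other groups. Apoe, which carries cholesterol out of macrophages, was at 494, 377 and 391 FPKM in SAP-24h and 1135, 1191 and 623 FPKM in Con-24h (log2 fold change −1.09 ± 0.32, adjusted p = 0.0178), below 2-fold or not called in 4 of the 6 fits. The Sham-24h mean of Apoe, 601 FPKM, lay nearer to that of SAP-24h (421 FPKM) than to that of Con-24h (983 FPKM). Of 23 cholesterol synthesis genes, the regulators Insig1 and Stard4 were up-regulated and none was down-regulated. Insig1, which holds back the sterol sensor in the endoplasmic reticulum, was at 55.8, 50.7 and 51.4 FPKM in SAP-24h and 23.8, 22.3 and 30.4 FPKM in Con-24h (log2 fold change 1.18 ± 0.17, adjusted p = 2.93e-04). Among 23 genes of fatty acid oxidation and lipid droplets none was called, and Plin2, the coat protein of lipid droplets, was at 57.1, 88.7 and 60.7 FPKM in SAP-24h and 46.3, 45.01 and 43.6 FPKM in Con-24h (log2 fold change 0.73 ± 0.20, adjusted p = 0.0114).

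Several groups showed few or no DEGs. Over all genes tested 6.91% were called, so few or no calls in a short list are near that share. None of 32 proliferation genes was called (median −0.14), and of 14 p53 target genes 1, Phlda3, was down-regulated (log2 fold change −1.30 ± 0.25, adjusted p = 0.00125), with Cdkn1a, the cell cycle inhibitor p21, at 168, 112 and 122 FPKM in SAP-24h and 51.1, 62.05 and 85.7 FPKM in Con-24h (log2 fold change 1.16 ± 0.46, adjusted p = 0.0721). None of 13 glucocorticoid target genes and none of 12 platelet genes was called, with medians of −0.15 and 0.80, the platelet median being 0.27 without SAP-24h replicate 1. The NRF2 target list of 16 gave Slc7a11 as up-regulated (lost in 4 of the 6 fits) and Gstp1 as down-regulated, with Txnrd1 just below 2-fold (log2 fold change 0.94 ± 0.17, adjusted p = 8.71e-04). Of 9 adipose genes Pck1 was up-regulated, of 10 pancreatic acinar genes Ctrc, and of 11 genes of the mitochondrial genome Mt-nd6, while of 64 ribosomal protein genes Rps6 was down-regulated. Pck1 was lost in 5 of the 6 fits and Ctrc in 3. Pancreatic acinar genes summed to 210, 434 and 220 in SAP-24h and 238, 398 and 304 in Con-24h FPKM. Heart muscle genes, with no DEG among 18, summed to 23.2, 17.7 and 223 in SAP-24h and 181, 61.1 and 37.7 in Con-24h FPKM, varying between rats of both groups. Red cell genes summed to 1439, 2636 and 1796 in SAP-24h and 1890, 2356 and 2801 in Con-24h FPKM in lungs flushed through the pulmonary artery, and 1 of 10, Hbe1, was called lower, on 1 read in SAP-24h, and lost in 5 of the 6 fits. Interferon-stimulated genes are given above. In the other lists without a call by edgeR, an unadjusted p under 0.05 was found for 2 proliferation, 4 glucocorticoid target, 2 platelet, 0 heart muscle, 1 type 2, 1 club and goblet cell and 7 fatty acid genes. In these lists DESeq2 called 1 platelet gene higher and none of the others.

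**Figure D5:**
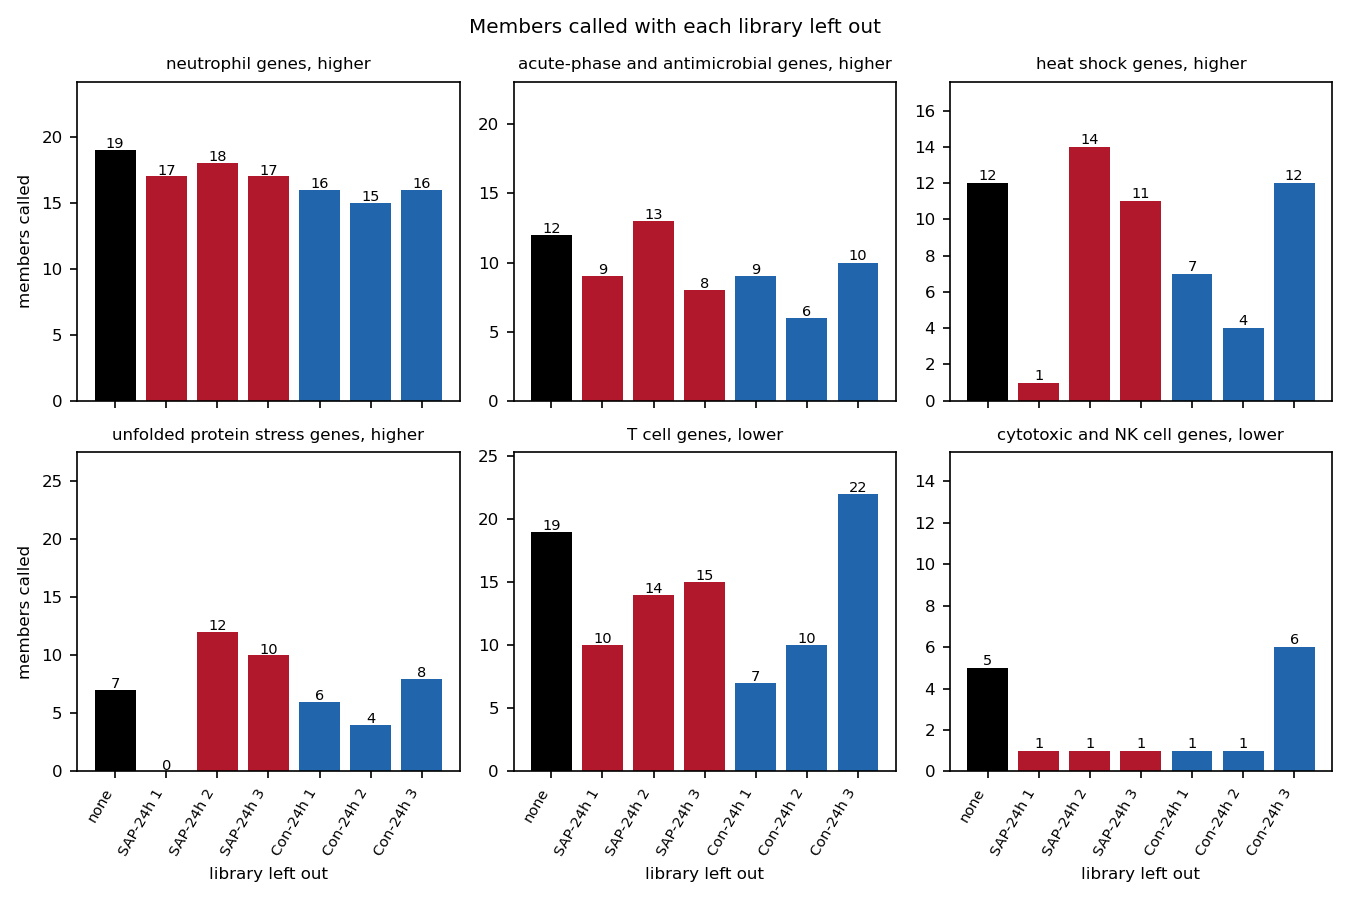
Number of members called (vertical axis, up to the number tested) in 6 gene lists with all libraries (black) and with each SAP-24h (red) or Con-24h (blue) library left out. Neutrophil genes stay at 15 to 19, heat shock genes fall from 12 to 1 and unfolded protein genes from 7 to 0 without SAP-24h replicate 1, and T cell genes range from 7 to 22.

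Of 380 annotated lncRNAs tested, 26 (6.84%) were DEGs, 18 up-regulated and 8 down-regulated. AABR07066529.3 on chromosome 9 was at 11.5, 1.96 and 1.99 FPKM in SAP-24h and 0.23, 0.04 and 0.24 FPKM in Con-24h (log2 fold change 5.10 ± 1.01, adjusted p = 0.00165), with a log2 fold change of 3.62 without SAP-24h replicate 1. AABR07030257.1 on chromosome 10 was at 2.26, 2.82 and 4.14 FPKM in SAP-24h and 0.39, 0.34 and 0.39 FPKM in Con-24h (log2 fold change 3.11 ± 0.78, adjusted p = 0.00696). AABR07001555.1 on chromosome 1 was at 0.24, 0.37 and 0.56 FPKM in SAP-24h and 4.8, 2.35 and 3.23 FPKM in Con-24h (log2 fold change −3.00 ± 0.55, adjusted p = 0.00103). These 3 lncRNAs were called in each of the 6 fits, and separation between the groups in every rat was part of the rule that named them. AABR07044454.1 (log2 fold change 2.89 ± 0.60), Rn60_7_1164.1 (−1.62 ± 0.38) and Rn60_20_0066.11 (−1.60 ± 0.47) were the others with the largest changes under the rule, the last being lost in 3 fits.

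Whether the effect of taurocholate differed between 24 and 6 hours was tested as an interaction in the same model. No gene passed the threshold in edgeR (0% of 15934, lowest adjusted p 0.0843), whereas 2038 genes had an unadjusted p under 0.05, 741 of them with a difference of at least 2-fold, and DESeq2 called 94. The values at both times are therefore given without a claim that they differ. The median log2 fold change of neutrophil genes was 2.84 at 24 hours and 0.69 at 6 hours. For acute-phase and antimicrobial genes it was 1.93 and 0.34. T cell genes had medians of −1.74 and −0.51, and heat shock genes 1.38 and 0.30. Platelet genes had 0.80 and 1.46, red cell genes −0.24 and 1.50, and interferon-stimulated genes −0.71 and 0.41. Cytotoxic and natural killer cell genes had −1.70 and 0.20. Feedback inhibitors had medians of 0.71 and 0.55, and metallothioneins and zinc transporters 0.59 and 0.57. Within the latter list, Mt2A had log2 fold changes of 4.33 and 2.40, and the Mt1 entry 3.44 and 1.37. Cxcl6 had a log2 fold change of 3.28 at 24 hours and −1.76 at 6 hours, and the interaction had an adjusted p of 0.171.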

How the data were processed

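RNA-seq libraries were prepared by the authors from polyadenylated lung RNA as directional paired-end libraries, 1 per rat. Per the labels and methods, adaptors and bases of low quality were removed and TopHat2 placed the reads, with 2 mismatches allowed, on the Ensembl rat genome named rat_ensembl_v6 by the authors. Reads with several positions were discarded and the others counted on genes; the counting program is not given in the sources used here. The deposited counts are whole numbers without normalization for 22914 genes, and the deposited FPKM values, made by the authors from the same libraries, are rounded to 2 decimals for 22907 genes. Mapping was not repeated.

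Differential expression was tested on the counts in edgeR (version 4.0.16, on limma 3.58.1 and R 4.3.3). Genes passed filterByExpr with at least 10 reads and 15 in total, libraries were scaled by TMM, and quasi-likelihood fits used 1 model for the 10 groups (30 libraries, 20 residual degrees of freedom), from which SAP-24h minus Con-24h was taken as a contrast. P-values were adjusted by Benjamini-Hochberg over all 15934 genes tested. Errors after ± are standard errors of the log2 fold change, and each group held 3 rats. The steps were tested on simulated counts. FPKM levels are given without a test. Counting intervals (95%) and the floor of 3 reads over a group cover counting error only. Python 3.11.15 (pandas 2.3.3, numpy 2.4.6) wrote the tables, and matplotlib 3.10.9 drew the figures. Promoters are the 250 bases before the start site in RefSeq's GRCr8 table, matched by symbol and chromosome.

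The text names the 12 up-regulated and 12 down-regulated protein-coding DEGs with the largest log2 fold change and the 6 of each with the largest difference in mean FPKM, all with a gene symbol, no overlap and 1 FPKM or more as the mean of either group. It also names 3 lncRNAs of each direction chosen likewise, and members of 42 gene lists (861 of 917 symbols matched, 821 tested), which held 169 of the 1101 DEGs. The comparison, lists and genes were chosen with earlier results of these data known, and a pattern across a list is a description. The alternatives comprised DESeq2 1.42.0, the exact test of edgeR, RLE scaling, fits of fewer libraries, other filters and thresholds, a replicate block and the omission of each library in turn. Some genes are not reported here.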

Additional observations from a re-analysis of the deposited data

How the results depend on the processing

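The counts of up-regulated and down-regulated genes (582 and 519) stayed within 1.5 times under RLE scaling (589 and 512), DESeq2 (616 and 570), edgeR's exact test (602 and 550), the 24-hour libraries alone (520 and 457), no filter on low counts (582 and 478) and a mean of at least 1 FPKM (473 and 356). With the 6 compared libraries alone they were 150 and 80, with 5 lncRNAs, and 228 of those 230 genes were called in the full model. Without the fold limit they were 1923 and 1596. Leaving out 1 library gave 355 to 696 up-regulated genes, 260 to 702 down-regulated genes and 14 to 38 lncRNAs, where 26 were called with all libraries. LncRNAs numbered 16 at a mean of at least 1 FPKM and 44 at an unadjusted p. The interaction with time gave 0 genes in edgeR and 94 in DESeq2. With the SAP and Con libraries of 24 and 6 hours alone it gave 6. It gave 741 at an unadjusted p and 0 to 22 with 1 library left out, 22 being without Con-24h replicate 3. It was not run with the exact test or on the 24-hour libraries alone.

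Replicate numbers were treated as names, since deviations of same-numbered libraries correlated at 0.14, 0.18 and −0.09, not all above 0.1, although 4 of 6 libraries correlated best with their own number, a hint of pairing from the data alone. With a replicate block there were 566 up-regulated and 508 down-regulated genes, 25 lncRNAs and 1 interaction. Of 277 genes followed by name, 4 changed sign, each when Con-24h replicate 1 was left out: over the fits without 1 library Cxcl10 ran from −5.36 to 2.64, Mx1 from −4.46 to 0.82, Irf7 from −3.77 to 1.08 and Isg15 from −4.13 to 2.74 on the log2 scale. None of these was called, and the cause was not tested. Genes of a few reads per library, such as Fga, Fgb and Hbe1, are limited by depth.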

Other observations

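Further families were examined after the values of all genes had been seen, so that their choice is not independent of their change. Of 25 genes of elastic fibres, small leucine-rich proteoglycans and a few other matrix proteins, 11 were down-regulated and 2 up-regulated, with a median log2 fold change of −0.97 against −0.01 over all genes. Between 5 and 11 were down-regulated when 1 library was left out. The other matrix proteins were Comp and Cilp, among the 11, and Thbs1, among the 2. Fmod, a proteoglycan that spaces collagen fibrils, was at 6.29, 7.59 and 6.67 FPKM in SAP-24h and 32.9, 38.7 and 21.99 FPKM in Con-24h (log2 fold change −2.07 ± 0.36, adjusted p = 8.20e-04). Mfap2, a component of microfibrils, was at 4.12, 4.97 and 7.41 FPKM in SAP-24h and 21.3, 36.99 and 26.5 FPKM in Con-24h (log2 fold change −2.25 ± 0.50, adjusted p = 0.00353). Both were separated in every rat and called in each fit, as was the increase of Emilin2, a glycoprotein of elastic tissue, which was at 16.6, 10.6 and 25.5 FPKM in SAP-24h and 3.65, 1.75 and 1.23 FPKM in Con-24h (log2 fold change 3.11 ± 0.64, adjusted p = 0.00201).

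Of 24 microbe-sensing receptors and inflammasome genes, 10 were up-regulated and none down-regulated (median 0.83, and 7 to 10 with 1 library left out). Tlr2, a receptor for bacterial lipopeptides, was at 14.6, 13.4 and 23.0 FPKM in SAP-24h and 5.11, 2.46 and 1.58 FPKM in Con-24h (log2 fold change 2.59 ± 0.51, adjusted p = 0.00159). Clec4d, a receptor for fungal and mycobacterial glycolipids, was at 5.37, 11.3 and 12.7 FPKM in SAP-24h and 1.75, 0.77 and 1.34 FPKM in Con-24h (log2 fold change 3.04 ± 0.69, adjusted p = 0.00381). Nlrp3, an inflammasome sensor, was at 2.67, 2.27 and 3.05 FPKM in SAP-24h and 1.45, 1.09 and 0.94 FPKM in Con-24h (log2 fold change 1.32 ± 0.30, adjusted p = 0.0041). All 3 were above every control in each SAP-24h rat. In Sham-24h, Nlrp3 was at 2.63, 1.45 and 3.0 FPKM and Clec4d at 7.79, 2.4 and 9.89 FPKM, with replicates 1 and 3 within the SAP-24h range for both. Of 11 interleukin-6 family receptors and signal transducers, 5 were up-regulated, with 3 to 5 when 1 library was left out. Jak2 and Stat3 were lost without SAP-24h replicate 1 and Il6r without SAP-24h replicate 2, each through a fold below 2. Osmr, the oncostatin M receptor, was at 6.19, 2.8 and 3.18 FPKM in SAP-24h and 1.64, 1.06 and 1.32 FPKM in Con-24h (log2 fold change 1.75 ± 0.35, adjusted p = 0.00164), and the shared chain Il6st was at 70.95, 47.3 and 40.8 FPKM in SAP-24h and 16.5, 20.3 and 28.6 FPKM in Con-24h (log2 fold change 1.43 ± 0.33, adjusted p = 0.00403).

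Of 14 Hedgehog pathway genes, 4 were down-regulated and none up-regulated, with 1 to 4 when 1 library was left out. Gli2, a transcription factor of the pathway, was at 0.53, 0.69 and 0.59 FPKM in SAP-24h and 1.09, 1.86 and 1.53 FPKM in Con-24h (log2 fold change −1.19 ± 0.24, adjusted p = 0.00185), lost without Con-24h replicate 2 (log2 fold change −0.99, adjusted p = 0.0198). Of 12 mast cell genes, 3 were down-regulated, with 0 to 4 when 1 library was left out, and Cma1, the mast cell chymase, was at 0.43, 1.02 and 1.23 FPKM in SAP-24h and 2.64, 3.86 and 2.0 FPKM in Con-24h (log2 fold change −1.56 ± 0.45, adjusted p = 0.0154), lost without Con-24h replicate 2 (log2 fold change −1.26, adjusted p = 0.0955) and without SAP-24h replicate 1 (log2 fold change −1.26, adjusted p = 0.0869). Among 22 leukotriene and prostaglandin genes, 4 were up-regulated and 2 down-regulated, with 1 to 4 and 2 to 3 when 1 library was left out. Ltb4r was lost in 5 of the 6 fits. Alox5ap, which presents arachidonate to 5-lipoxygenase, was at 208, 227 and 272 FPKM in SAP-24h and 83.3, 75.3 and 87.8 FPKM in Con-24h (log2 fold change 1.64 ± 0.31, adjusted p = 0.00133), called in each fit. Ptgdr2, the prostaglandin D2 receptor of type 2 lymphocytes, eosinophils and basophils, was at 0.32, 0.42 and 0.32 FPKM in SAP-24h and 1.19, 2.29 and 0.79 FPKM in Con-24h (log2 fold change −1.88 ± 0.36, adjusted p = 0.00135).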
